A study of Mus musculus with 6 samples.

Results

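Expression of 10 genes encoding transcription factors that direct thymocytes into the CD4 or the CD8 lineage was examined in mature CD4 SP thymocytes with and without the H3K27 demethylases Jmjd3 and Utx. The 10 genes (*Zbtb7b*, *Gata3*, *Myb*, *Tox*, *Runx1*, *Runx3*, *Cbfb*, *Bcl11b*, *Lef1* and *Satb1*) were chosen by symbol in the annotation of the array, and each had 1 row of values, so that they made up 10 of the 19752 genes measured. The tested cells were dKO mature (Vα2hi CD24lo) CD4 SP thymocytes of OT-II TCR transgenic mice, labelled Jmd3f/f-utxf/f, in which Cre under *Cd4* control deletes floxed *Kdm6a* (*Utx*) and *Kdm6b* (*Jmjd3*) alleles from the double-positive (DP) stage on. They were set against wild-type cells of the same phenotype, from Cre-negative OT-II animals that the methods describe as littermates carrying floxed alleles. All cells therefore carried the same MHC II-restricted transgenic TCR, and Cre was present in the dKO cells only. The deletion removes exons for the catalytic domain, so that the rest of each transcript may persist. The methods state that females were used unless otherwise indicated and that thymocytes came from young adult animals, and the labels give neither an age nor whether each array came from 1 mouse. Each genotype was hybridized to 3 arrays, described as biological replicates, and p-values measure the spread between these arrays.

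CD4 and CD8 T-cells arise from a common DP precursor. Gata3, Tox and Myb act early in cells selected on MHC II and are needed for expression of *Zbtb7b*, whose product Thpok (a zinc-finger protein with a BTB domain) commits cells to the CD4 lineage and represses CD8 lineage genes. In cells selected on MHC I, Runx complexes, formed by a DNA-binding Runx protein and its partner Cbfβ, silence *Cd4* and *Zbtb7b*, and Runx3 promotes the cytotoxic programme. Bcl11b, Lef1 and Satb1 serve both branches: Bcl11b maintains T-cell identity, Lef1 acts with its relative Tcf1 upstream of Thpok, and Satb1 organizes chromatin at lineage genes.

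The promoters of *Zbtb7b* and *Runx3*, the genes whose products oppose each other, and the distal promoter of *Runx1* are shown because Runx proteins bind Runx genes and *Zbtb7b*. Each sequence is a RefSeq window (GRCm38.p6) of 250 bases before to 50 bases after an annotated start, written 5′ to 3′ along the gene, and capitals mark each match to the Runx motif TGTGGT or its reverse complement ACCACA.
*Zbtb7b* first start (chr3:89393329-89393628, minus strand): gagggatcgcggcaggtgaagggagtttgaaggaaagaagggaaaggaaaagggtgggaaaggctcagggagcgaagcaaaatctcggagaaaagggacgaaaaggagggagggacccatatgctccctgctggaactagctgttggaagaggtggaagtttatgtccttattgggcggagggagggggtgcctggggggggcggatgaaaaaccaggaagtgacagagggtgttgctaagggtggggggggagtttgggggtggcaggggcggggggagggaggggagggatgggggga
*Zbtb7b* second start (chr3:89387622-89387921, minus strand): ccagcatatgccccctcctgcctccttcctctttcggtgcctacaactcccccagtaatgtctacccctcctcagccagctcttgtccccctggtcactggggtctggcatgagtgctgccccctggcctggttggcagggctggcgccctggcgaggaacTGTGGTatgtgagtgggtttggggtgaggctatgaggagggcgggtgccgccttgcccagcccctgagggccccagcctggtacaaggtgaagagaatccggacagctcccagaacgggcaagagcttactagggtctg
*Runx3* first start (chr4:135120395-135120694, plus strand): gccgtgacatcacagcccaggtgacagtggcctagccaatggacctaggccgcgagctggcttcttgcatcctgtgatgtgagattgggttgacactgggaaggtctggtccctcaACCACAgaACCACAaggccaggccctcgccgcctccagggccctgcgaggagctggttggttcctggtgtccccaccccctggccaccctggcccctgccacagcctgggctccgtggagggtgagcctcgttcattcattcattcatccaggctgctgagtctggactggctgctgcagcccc
*Runx3* second start (chr4:135152295-135152594, plus strand): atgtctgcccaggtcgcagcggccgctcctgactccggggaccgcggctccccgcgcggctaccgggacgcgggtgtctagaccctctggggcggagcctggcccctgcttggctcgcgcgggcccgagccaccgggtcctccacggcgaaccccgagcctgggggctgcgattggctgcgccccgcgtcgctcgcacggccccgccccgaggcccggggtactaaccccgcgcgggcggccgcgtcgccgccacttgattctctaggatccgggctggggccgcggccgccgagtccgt
*Runx1* first start (chr16:92826025-92826324, minus strand): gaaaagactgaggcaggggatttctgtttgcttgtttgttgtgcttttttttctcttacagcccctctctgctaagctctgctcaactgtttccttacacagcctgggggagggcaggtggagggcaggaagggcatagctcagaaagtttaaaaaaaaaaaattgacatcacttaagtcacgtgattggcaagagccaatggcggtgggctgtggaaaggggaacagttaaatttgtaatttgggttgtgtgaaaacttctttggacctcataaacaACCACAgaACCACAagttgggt

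The second *Zbtb7b* window held 1 Runx match, 89 bases before the start, which overlapped a match to the Myb motif AACNG. The first *Runx3* window held 2 matches, 134 and 126 bases before the start, and the first *Runx1* window held 2, at 28 and 36 bases after the start. Both pairs lie within the same 18-base stretch, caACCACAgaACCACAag. The paired arrangement ACCACANNACCACA, searched for on both strands after these matches had been seen, occurred in 7 of 32851 windows, 0.0213% of all. The 7 genes were *Runx1*, *Runx2*, *Runx3* and 4 others. Which start these cells use was not measured.

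Windows were found for 9 members, 19 in all, and none was found for *Tox*. A Runx match was present in 3 of the 8 windows of *Zbtb7b*, *Gata3*, *Myb*, *Runx1* and *Runx3*, in none of the 11 windows of the other members, and in 16.8% of all windows. Of those 11 windows, 5 belonged to *Satb1* and 4 to *Lef1*, and some overlapped, so that windows are not independent. Whether Runx matches go with the decreases was not tested. The Tcf/Lef motif CTTTGA was found in 2 member windows, of *Bcl11b* and *Lef1*, against 16% of all windows, and the Gata motif AGATAA in 1, of *Lef1*, against 11.2%. AACNG is short and was found in 13 member windows and in 80.3% of all. The windows differed in CpG dinucleotides, with 45 in the second window of *Runx3* and in that of *Satb1*. The *Myb* window held 40, the second *Runx1* window 35 and the *Cbfb* window 30. The first *Runx3* window held 8 and the *Zbtb7b* windows 8 and 7, against a median of 7 over all windows. These counts describe letters within the windows and do not measure binding or methylation.

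*Zbtb7b*, *Gata3*, *Myb*, *Runx1* and *Runx3* were lower in dKO cells, 5 of the 10 genes. The other 5 (*Tox*, *Cbfb*, *Bcl11b*, *Lef1* and *Satb1*) did not pass the test, and so no member was called higher. Over all 19752 genes, 10% were called lower and 13.1% higher, 23.1% in all. The members are bright genes, and calls were more frequent among bright genes. In a fit of the 9876 brightest alone, which hold all 10 members, 1887 were called lower and 2634 higher. Calls were made at an adjusted p under 0.05 with limma, a linear model with moderated variances, adjusted over all genes by the Benjamini-Hochberg method. The 5 decreases were modest: expression in dKO cells was between 75.7% (*Myb*) and 84.5% (*Gata3*) of that in wild-type cells, and none reached 2-fold. Over the 10 genes the log2 fold change had a median of -0.13, against 0.01 over all genes, and the median size of the change, regardless of sign, was 0.16 on the log2 scale against 0.08. For the same 5 genes no dKO array reached the lowest wild-type array, as in 16.5% of all genes. *Bcl11b* was separated the other way, and separation in either direction occurred in 37.7% of all genes. These shares and the medians over all genes were not matched to the members for brightness. Values are log2 expression from RMA, in which a difference of 1 is a 2-fold change. Different probes of an array do not share a scale, so the tests compare genotypes only. Levels set beside the medians or quartiles of the arrays, summed marker levels and the words bright and dim are rough guides.

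**Figure D1:**
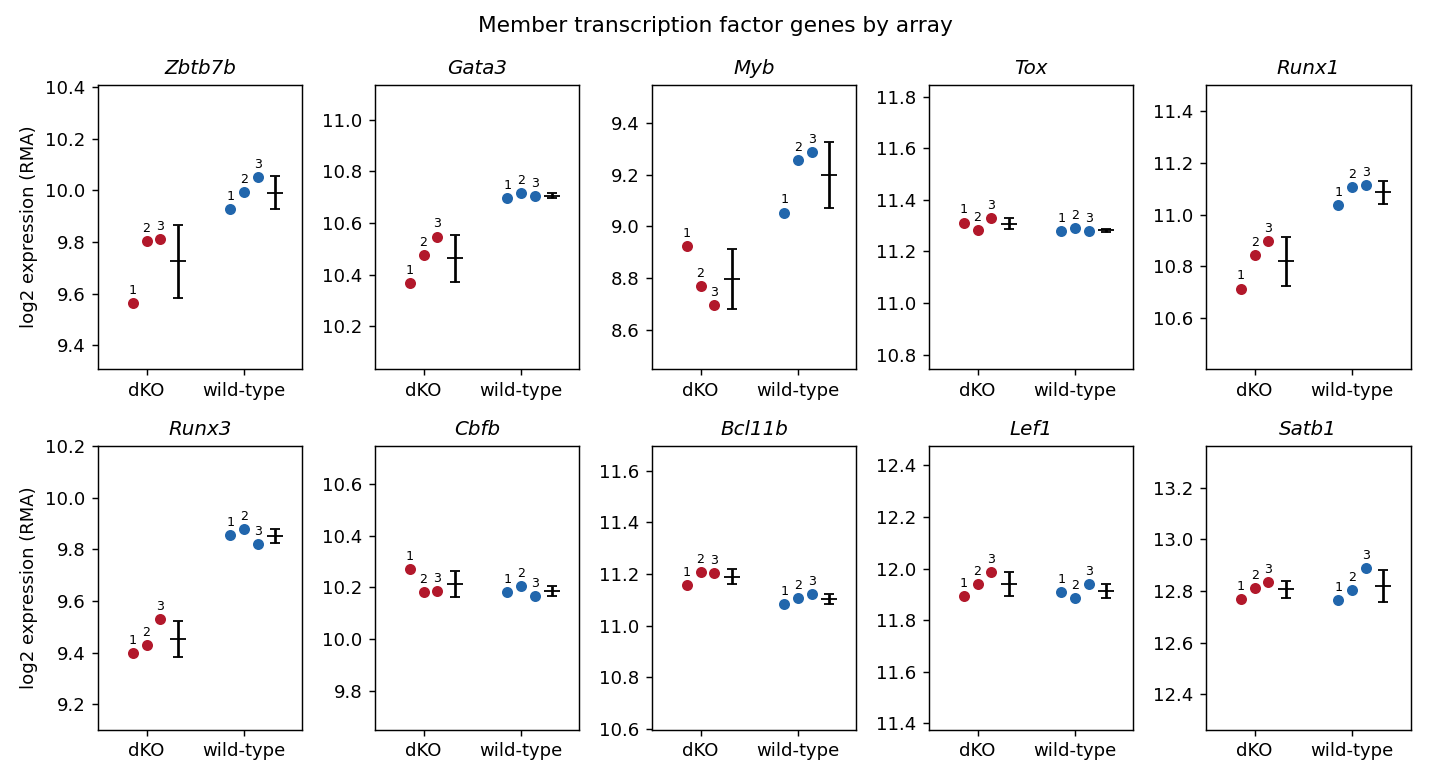
Log2 expression (vertical axis, RMA values, all panels spanning the same range) of the 10 genes in dKO and wild-type mature CD4 SP thymocytes. Points are single arrays labelled by replicate number, and the bar is the mean ± SD (n = 3). The red and blue points do not overlap in *Zbtb7b*, *Gata3*, *Myb*, *Runx1*, *Runx3* and *Bcl11b*, and overlap in the other 4.

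Thpok is the product of *Zbtb7b*. The log2 values of *Zbtb7b* were 9.56, 9.80 and 9.81 in dKO cells, against 9.93, 9.99 and 10.05 in wild-type cells. The groups did not overlap, and dKO replicate 1 lay well below the other dKO arrays. *Zbtb7b* fell by 16.8% (log2 fold change -0.27) with a standard error of 0.07 on the log2 scale (limma, adjusted p = 0.022), and the 95% interval reached from 74.5% to 92.9% of the wild-type value. It was the only one of the 5 decreases whose call was lost when an array was left out. Its adjusted p was 0.0503 without dKO replicate 1 (log2 fold change -0.18), 0.067 without wild-type replicate 2 and 0.071 without wild-type replicate 3.

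*Gata3*, which encodes a zinc-finger factor required for CD4 SP development and bound at *Zbtb7b*, had log2 values of 10.37, 10.48 and 10.55 in dKO cells, against 10.70, 10.71 and 10.71 in wild-type cells. The wild-type arrays were nearly level, and the dKO arrays, all lower, were spread more widely. *Gata3* expression in dKO cells was 84.5% of that in wild-type cells, with a 95% interval of 77.7% to 92.0%. This is a log2 fold change of -0.24 with a standard error of 0.05 (limma, adjusted p = 0.0093).

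*Myb*, whose product c-Myb is needed for the CD4 branch and for *Gata3* expression after TCR signalling, showed, together with *Runx3*, the largest of the 5 measured decreases. Its log2 values were 8.92, 8.77 and 8.70 in dKO cells, against 9.05, 9.26 and 9.29 in wild-type cells. The highest dKO array and the lowest wild-type array were only 0.13 apart, and both carried replicate number 1. *Myb* fell by 24.3%, with a 95% interval of 67.2% to 85.2% of the wild-type level. Its log2 fold change of -0.40 had a standard error of 0.08 (limma, adjusted p = 0.0039).

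*Tox*, an HMG-box factor gene required for CD4 T-cell development, had log2 values of 11.31, 11.28 and 11.33 in dKO cells and 11.28, 11.29 and 11.28 in wild-type cells. The groups overlapped, and the arrays of *Tox* were closer together than those of nearly all genes (pooled SD 0.017). Its log2 fold change was 0.026 (adjusted p = 0.75 from limma), and the 95% interval allowed a change between -4.81% and 8.90%. 

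*Runx3* encodes the Runx protein of CD8 lineage cells. Its log2 values were 9.40, 9.43 and 9.53 in dKO cells, against 9.85, 9.88 and 9.82 in wild-type cells. The gap between the nearest arrays of the 2 genotypes, 0.29, was the widest of the 10 genes. *Runx3* fell by 24.1%, with a 95% interval of 70.1% to 82.0% of the wild-type level. Its log2 fold change of -0.40 had a standard error of 0.05 (limma, adjusted p = 3.4e-04).

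*Runx1*, which encodes the family member prominent in DP thymocytes and resting T-cells, had log2 values of 10.71, 10.84 and 10.90 in dKO cells, against 11.04, 11.11 and 11.12 in wild-type cells. The genotypes were again separate, with dKO replicate 1 the lowest. *Runx1* expression in dKO cells was 83.1% of that in wild-type cells, with a 95% interval of 76.0% to 90.8%. The log2 fold change was -0.27, with a standard error of 0.06 (limma, adjusted p = 0.0075).

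*Cbfb*, which encodes the non-DNA-binding subunit that all Runx proteins share, did not pass the test. Its log2 values were 10.27, 10.18 and 10.18 in dKO cells and 10.18, 10.21 and 10.17 in wild-type cells. The groups overlapped, with dKO replicate 1 alone standing above the rest. The log2 fold change was 0.028 (adjusted p = 0.75 from limma), with a 95% interval of -5.22% to 9.63%.

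Whether pairs of members changed by unequal amounts was tested for 5 pairs, on the difference of the 2 log2 values within each array. With 3 arrays a genotype, an exact two-sided permutation test cannot give a p below 0.10. The dKO minus wild-type change of *Runx3* relative to *Cbfb* was -0.43, that of *Gata3* relative to *Tox* was -0.27, and that of *Runx1* relative to *Runx3* was 0.13, each without overlap between genotypes (exact permutation p = 0.10, adjusted p = 0.167 for each). That of *Zbtb7b* relative to *Runx3* was also 0.13, but its groups overlapped (exact permutation p = 0.20, adjusted p = 0.25), with an SD of 0.10 over dKO and 0.08 over wild-type arrays. For *Lef1* relative to *Satb1* the change was 0.042 (exact permutation p = 0.30).

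**Figure D2:**
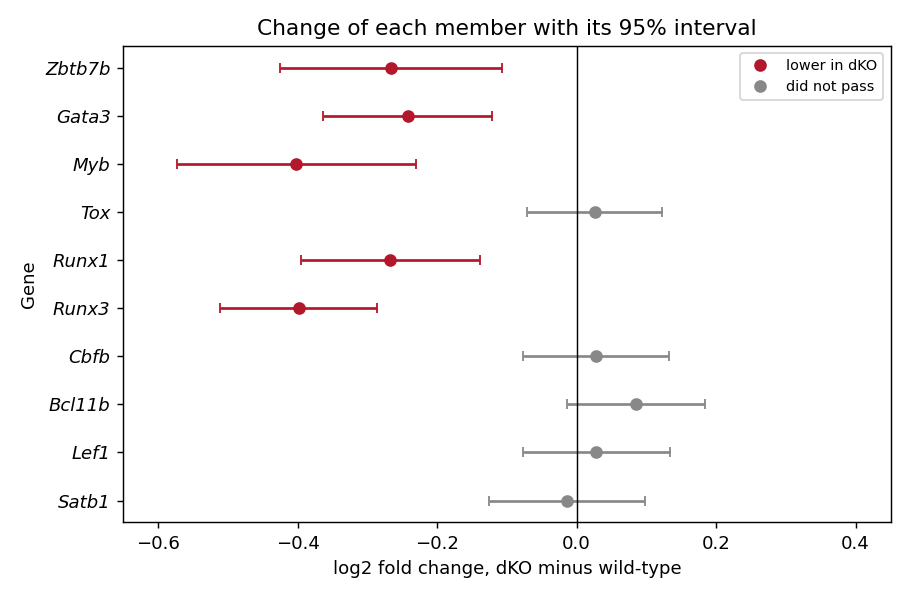
Log2 fold change of each member (dKO minus wild-type, horizontal axis) with its 95% interval from limma (bars), in red for lower in dKO cells and in grey where the test was not passed. The 5 red intervals lie below 0, and the 5 grey intervals include 0 and stay between -0.13 and 0.18.

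None of the 3 factors common to both branches passed the test. *Bcl11b*, encoding a zinc-finger protein essential for T-cell commitment, had log2 values of 11.16, 11.21 and 11.21 in dKO cells and 11.08, 11.11 and 11.12 in wild-type cells. The lowest dKO array lay above the highest wild-type array, as in 21.3% of all genes, by 0.033 on the log2 scale. Its log2 fold change of 0.085 did not pass the test (adjusted p = 0.22 from limma, 95% interval -0.995% to 13.6%).

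*Lef1*, an HMG-box gene of the Wnt pathway, had log2 values of 11.89, 11.94 and 11.99 in dKO cells and 11.91, 11.89 and 11.94 in wild-type cells. *Satb1*, encoding a chromatin organizer, had log2 values of 12.77, 12.81 and 12.84 in dKO cells and 12.77, 12.80 and 12.89 in wild-type cells. In both genes the arrays of the genotypes were interleaved. The log2 fold changes were 0.029 for *Lef1* (adjusted p = 0.74 from limma, 95% interval -5.16% to 9.69%) and -0.014 for *Satb1* (adjusted p = 0.89, 95% interval -8.33% to 7.05%). A decrease of the size seen for *Myb* or *Runx3* lies outside the intervals of all 5 genes that did not pass.

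The decreases of *Gata3*, *Myb*, *Runx1* and *Runx3* were called with any single array left out, the highest adjusted p being 0.038 for *Gata3*, 0.020 for *Myb*, 0.034 for *Runx1* and 0.0029 for *Runx3*. A test with unmoderated variances (adjusted by the Benjamini-Hochberg method) called *Runx3* only, and no member passed against a fold of 1.2, so that the test does not place any of the 5 decreases beyond that fold.

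**Figure D3:**
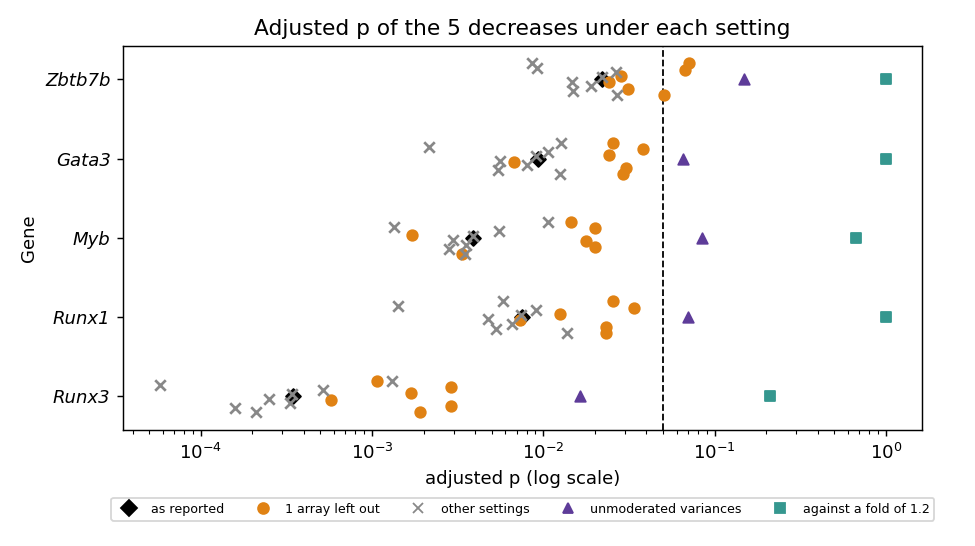
Adjusted p (horizontal axis, log scale) of the 5 decreases as reported (black) and under 16 other settings (each array left out, orange; unmoderated variances, purple; a test against a fold of 1.2, green; others, grey), with the dashed line at 0.05. *Runx3* lies left of the line except against a fold of 1.2, and 3 orange points of *Zbtb7b* lie right of it.

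Paralogs of the members had mean log2 values of 4.79 to 8.89 in dKO cells and 4.65 to 9.04 in wild-type cells, on arrays whose medians lay between 6.27 and 6.32. Of 15 measured, 2 were higher, 1 was lower and 12 did not pass, where 13.1% of all genes were higher and 10% lower. *Tcf7l1* and *Tcf7l2*, which encode relatives of Lef1, had mean log2 values of 6.81 and 6.97 in dKO cells, against 6.46 and 6.57 in wild-type cells (log2 fold changes 0.35 and 0.40, adjusted p = 7.2e-04 and 8.5e-04 from limma). *Gata1*, encoding the erythroid Gata factor, had log2 values of 5.62, 5.92 and 5.59 in dKO cells, against 6.44, 6.28 and 6.23 in wild-type cells. Its log2 fold change was -0.60 (adjusted p = 8.2e-04), at levels near or below the median of the arrays. *Mybl1* did not pass (log2 fold change 0.13, adjusted p = 0.055). *Tcf7* and *Runx2* are not analysed here.

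Among 18 measured partners and cofactors, 5 were higher, 3 were lower and 10 did not pass, with a median log2 fold change of 0.02. The shares over all genes were 13.1% higher and 10% lower. In the fit of the 9876 brightest genes, 2634 were higher and 1887 lower. Whether this list differs from other bright genes was not tested. The Groucho corepressors, which bind Runx and Lef proteins, moved in both directions. *Tle1* averaged 6.97 in dKO cells and 6.49 in wild-type cells on the log2 scale (log2 fold change 0.48, adjusted p = 5.5e-04 from limma), and *Tle4* was higher by 0.25 (adjusted p = 0.0028). *Tle3*, another Groucho gene, and *Tle5*, which encodes a short family member, were lower (log2 fold changes -0.21 and -0.22, adjusted p = 0.014 and 0.0067).

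The other 3 that were higher encode the histone deacetylases Hdac1 and Hdac2 and Mta2, a subunit of a deacetylase complex. *Hdac2* had log2 values of 9.68, 9.55 and 9.70 in dKO cells, against 9.40, 9.29 and 9.31 in wild-type cells (log2 fold change 0.31, adjusted p = 0.0026), *Hdac1* rose by 0.25 (adjusted p = 0.0042) and *Mta2* by 0.20 (adjusted p = 0.0088). *Chd4*, encoding the ATPase of the complex to which Mta2 belongs, did not pass (log2 fold change 0.043, adjusted p = 0.55), and neither did *Hdac3* (log2 fold change 0.089, adjusted p = 0.23). *Smarca4*, encoding the ATPase of a chromatin remodelling complex, was lower, at 9.79, 9.85 and 9.93 in dKO cells, against 10.19, 10.16 and 10.18 in wild-type cells (log2 fold change -0.32, adjusted p = 0.0013).

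Other transcription factors of late thymocyte differentiation were lower in 12 of 28 cases and higher in none, and 16 did not pass. Over all genes, 10% were called lower and 13.1% higher. Among the 9876 brightest genes fitted alone, 1887 were lower and 2634 higher. The list was chosen with earlier results of these data known. *Klf2* and *Foxo1*, which the study names from these cells and which are therefore not independent of them, had the smallest p. Next came *Ikzf2*, encoding Helios, at 6.48, 6.16 and 6.29 in dKO cells, against 7.38, 7.14 and 7.24 in wild-type cells (log2 fold change -0.94, adjusted p = 4.2e-05 from limma), and *Elf4*, an Ets family gene, at 10.38, 10.45 and 10.55 in dKO cells, against 11.07, 11.02 and 11.04 in wild-type cells (log2 fold change -0.59, adjusted p = 4.3e-05). The log2 fold changes of these 28 genes had a median of -0.07.

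**Figure D4:**
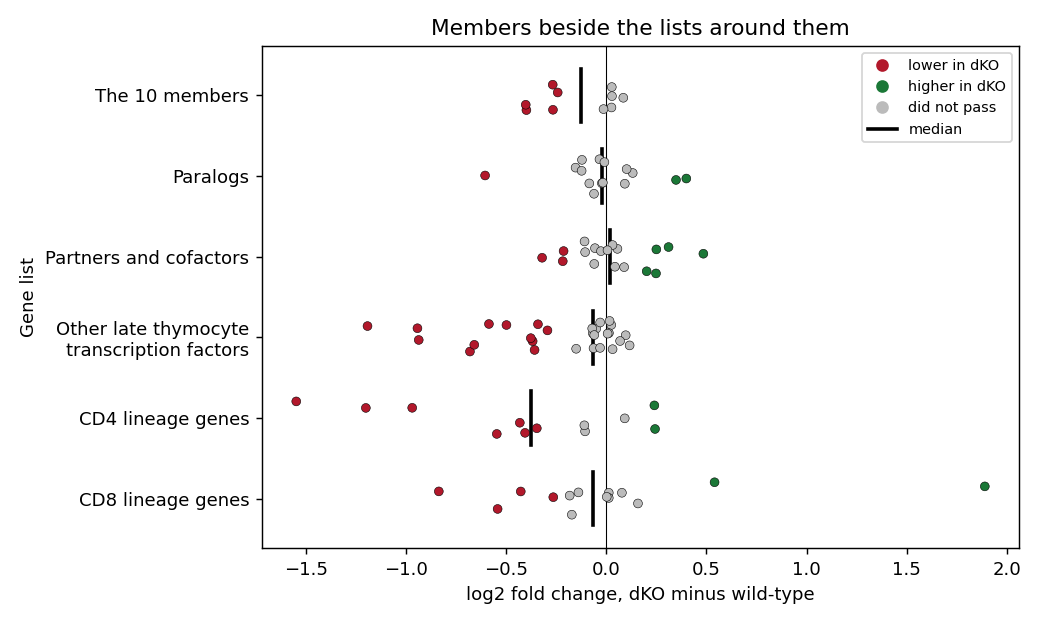
Log2 fold change (dKO minus wild-type, horizontal axis) of the 10 members and of 5 lists of genes around them (rows). Points are single genes, coloured by call (red, lower; green, higher; grey, test not passed) and spread vertically only for legibility, and the bar is the median. The members lie between -0.40 and 0.085, and the CD4 lineage genes have the lowest median of the 6 rows, -0.38.

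Genes of lists named for the CD4 and the CD8 lineage were read beside the factors. Whether each gene is confined to the lineage of its list was not tested. Of 12 genes in the CD4 list, 7 were lower, 2 were higher (*Cd28* and *Cd40lg*) and 3 did not pass. The shares over all genes were 10% lower and 13.1% higher. Among the 9876 brightest genes fitted alone, 1887 were lower and 2634 higher. Of the 3 listed genes that did not pass, 1 was *Cd4* itself, which Runx complexes silence in CD8 lineage cells. *Cd4* had log2 values of 12.32, 12.27 and 12.31 in dKO cells and 12.11, 12.21 and 12.31 in wild-type cells (log2 fold change 0.09, adjusted p = 0.30 from limma). The smallest p belonged to *Itgb7*, *St8sia6*, *Il6ra* and *Socs1*, of which *Il6ra* is also named by the study from these cells. *St8sia6*, encoding a sialyltransferase, had log2 values of 8.78, 8.96 and 9.10 in dKO cells, against 10.24, 10.07 and 10.13 in wild-type cells, and *Socs1*, encoding an inhibitor of cytokine signalling, had 8.73, 8.76 and 8.71, against 9.29, 9.30 and 9.25. Their log2 fold changes were -1.20 and -0.55 (adjusted p = 5.5e-06 and 2.1e-05).

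The list of the CD8 lineage, with its cytotoxic effectors, held 14 measured genes, of which 2 were higher, 4 were lower and 8 did not pass. The shares over all genes were 13.1% higher and 10% lower. *Cd8b1*, one of the coreceptor genes that Thpok represses, had log2 values of 10.12, 10.07 and 10.13 in dKO cells, against 9.59, 9.61 and 9.51 in wild-type cells, and *Prf1*, encoding perforin, had 8.71, 8.72 and 8.62, against 6.90, 6.79 and 6.69. Their log2 fold changes were 0.54 and 1.89 (adjusted p = 3.8e-05 and 6.1e-08 from limma). The 4 lower were *Ctsw* (log2 fold change -0.84), *Nkg7* (-0.54), *Crtam* (-0.43) and *Itgae* (-0.26), and the last 2 averaged under the median of the arrays in both genotypes. *Cd8a*, the other coreceptor gene, did not pass, at 7.67, 7.56 and 7.57 in dKO cells and 7.86, 7.84 and 7.62 in wild-type cells (log2 fold change -0.17, adjusted p = 0.11 from limma). Of the other 7 that did not pass, *Cst7* and *Ccl5* averaged above the median of the arrays in both genotypes, and *Gzma*, *Gzmb*, *Ifng*, *Cd160* and *Klrd1* below it.

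The labelled cell type was checked against marker genes. *Cd3e* averaged 13.07 in dKO and 13.06 in wild-type cells on the log2 scale, and of 9 T-cell genes *Themis* and *Lat* were lower and none was higher. The B-cell markers *Ms4a1*, *Cd79a* and *Ebf1*, the NK-cell markers *Ncr1*, *Klrk1* and *Klrb1c* and the macrophage marker *Adgre1* averaged under the first quartile of the arrays (4.97 to 5.01) in both genotypes. Above it were *Pax5* (5.61 in dKO and 5.52 in wild-type cells), *Cd79b* (6.51 in dKO and 7.14 in wild-type cells), the NKT-cell gene *Zbtb16* (5.93 in dKO and 6.09 in wild-type cells) and the other 5 myeloid markers. The summed level of 7 DP markers was higher in dKO cells (10.47 to 10.73 on the log2 scale) than in wild-type cells (9.93 to 10.12), with *Dntt* (9.19 in dKO and 7.67 in wild-type cells) and *Cd1d1* called higher and *Rag1* and *Arpp21* called lower. *Dntt* was the brightest of the 7 in dKO cells and had the largest change, so that the sum mostly follows it, and the count of DP markers called lower was 0 without dKO replicate 2 or 3 or wild-type replicate 1 or 2. For 5 B-cell markers it was 7.62 to 7.69 in dKO and 7.95 to 8.01 in wild-type cells, and *Cd79b* was the only one of the 5 called. Of 6 myeloid markers *Itgam* and *Cd68* were lower and *Lyz2* was higher, with summed levels of 8.26 to 8.47 in dKO and 8.41 to 8.49 in wild-type cells, and of 3 γδ T-cell markers *Maf* was lower, with 7.90 to 8.01 in dKO and 8.17 to 8.30 in wild-type cells. *Epcam* was higher among 5 thymic epithelial markers, at 5.48 in dKO and 5.20 in wild-type cells, under the median of the arrays. *Mki67* and *Top2a* were lower among 4 cell-cycle genes, and none of 4 NK and NKT or 2 erythroid markers was called. Several of these calls depended on single arrays. *Lyz2*, at 6.75, 6.02 and 5.48 in dKO cells against 5.35, 5.43 and 5.03 in wild-type cells, kept its call without dKO replicate 3 and lost it when any other single array was left out. The count of lower T-cell genes was 1 with any array but wild-type replicate 1 left out, and that of lower cell-cycle genes was 1 without dKO replicate 2 or 3 or wild-type replicate 1 or 2. The part of these shifts in the changes of the 10 genes was not tested, and in sorted bulk cells fewer cells of a kind and less RNA per cell cannot be told apart. *Kdm6a* averaged 9.49 in dKO and 10.16 in wild-type cells, and *Kdm6b* 9.81 and 9.90, with no measure of the deleted exons alone.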

How the data were processed

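RNA of sorted mature OT-II CD4 SP thymocytes was hybridized to Affymetrix arrays, Mouse Gene 1.0 ST per the methods and the row annotation (the design text names the Exon 1.0 ST). The deposited table holds log2 values, which the authors computed in Partek with RMA per the submitters' notes (background correction, quantile normalization, 1 value per row). RMA evens out the arrays, so a shift common to most genes is hidden, and small differences of dim genes are compressed. The number of arrays limits the precision.

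Of 25254 rows, 21496 had 1 symbol, updated through Entrez identifiers with RefSeq, and the brightest row of each gene was kept (19752 genes). limma 3.58.1 in R 4.3.3 tested genotype on the values as deposited, without a filter. Figures were drawn with matplotlib 3.10.9. The fit was tested on simulated data. The members and lists were chosen with earlier results of these data known. All members are described, and from each list the genes with the smallest p (up to 4) and any called genes numbering 5 or fewer in a direction. *Cd4*, *Cd8a*, *Chd4*, *Hdac3*, the dim or uncalled CD8 lineage genes, *Cd3e* and the markers of other cells were named beside them after their values were seen. Alternatives were normalization again (quantile, cyclic loess), dim genes left out, the mean of a gene's rows, all rows, trend and robust variances, unmoderated variances (Student's test), the replicate number as a block, a fold of 1.2 and each array left out.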

Additional observations from a re-analysis of the deposited data

How the results depend on the processing

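The count of 5 members lower and none higher was the same after quantile or cyclic loess normalization again, with the 14814 or 9876 brightest genes, with the mean of a gene's rows, over all rows and with trend and robust variances. With 1 array left out, 4 to 5 members were lower. With unmoderated variances (Student's test), 1 member was called lower, *Runx3*, and not *Zbtb7b* (log2 fold change -0.27, adjusted p = 0.15), *Gata3* (-0.24, adjusted p = 0.065), *Myb* (-0.40, adjusted p = 0.084) or *Runx1* (-0.27, adjusted p = 0.070). This test called 1173 of all genes lower and 1392 higher, against 1976 and 2587 with limma. Against a fold of 1.2, limma called 0 members, 438 genes lower and 383 higher, and the adjusted p was 0.21 for *Runx3* (log2 fold change -0.40), 0.67 for *Myb* (-0.40) and 1 for *Zbtb7b* (-0.27), *Gata3* (-0.24) and *Runx1* (-0.27). With arrays left out, *Zbtb7b* lay between -0.31 and -0.18, *Cbfb* between -0.0013 and 0.042 and *Satb1* between -0.041 and 0.021, and *Satb1* was 0.017 after cyclic loess normalization. The change of *Lef1* relative to *Satb1* was 0.092 after quantile normalization again. Deviations of same-numbered arrays correlated weakly, at 0.099, 0.024 and 0.070. Those of differently numbered arrays correlated between -0.098 and 0.040. Whether replicate numbers pair the arrays is not settled by values this small. With the replicate number as a block, 5 members and 1970 genes were lower, and no member's call changed. The causes were not tested.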

Other observations

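The nearest measured genes on each side of the 10 members, in the order of the RefSeq genes, were read from the same fit. Of these 20 neighbours, 2 were called, against 23.1% of all genes. *Celf2*, an RNA-binding protein gene next to *Gata3*, was lower, at a mean log2 value of 10.45 in dKO and 10.77 in wild-type cells (log2 fold change -0.32, adjusted p = 0.0017 from limma). *Hadh*, a gene of fatty acid oxidation next to *Lef1*, was higher, at 10.98 in dKO and 10.63 in wild-type cells (log2 fold change 0.34, adjusted p = 5.3e-04). The neighbours of *Zbtb7b* (*Dcst2* and *Cks1b*), *Myb* (*Ahi1* and *Hbs1l*), *Runx1* (*Clic6* and *Setd4*) and *Runx3* (*Syf2* and *Clic4*) did not pass, with log2 fold changes from -0.10 for *Hbs1l* to 0.27 for *Clic4*.

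The lowest dKO array was replicate 1 in 7 of the 10 members, *Zbtb7b*, *Gata3*, *Runx1* and *Runx3* among them, and in 38.9% of all genes. *Myb* ran the other way, with its highest dKO value in replicate 1. The lowest wild-type array was likewise replicate 1 in 7 of the 10 members, *Zbtb7b*, *Gata3*, *Myb* and *Runx1* among them. For wild-type arrays the share over all genes was not computed, so this count has no background beside it.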
